A study of Mus musculus with 2 samples.

Results

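Neutrophil granule genes were examined in single-cell transcriptomes of mouse femurs. The set held 10 genes chosen by symbol (Elane, Mpo, Prtn3, Ctsg, Camp, Ngp, Ltf, Mmp8, S100a8 and S100a9) of 28006 features counted, and all 10 were present in the feature list. Both libraries came from 1 group and are called Mouse #1 and Mouse #2 after the numbers in their titles, with the genotype Cxcl12(GFP/+); Cxcl12-iCreER; R26R(tdTomato/+). In these mice GFP reports the stromal chemokine gene Cxcl12, and tamoxifen given at postnatal day 21 switches on tdTomato in cells that express the Cxcl12 Cre recombinase; bones were taken at postnatal day 28. There was no untreated or wild-type group, both mice carried all 3 alleles and 1 copy of Cxcl12 was replaced by GFP. The labels name the sorted cells as GFP-positive marrow mesenchymal cells, and the study's text describes a sort on high GFP for these libraries and treats each as a separate mouse, while the extraction label of the same samples names tdTomato-positive cells. Granulocytes were not the cells sought. A barcode was taken as a cell when it showed 1000 genes or more and when mitochondrial transcripts made up no more than 15% of it, which left 2750 cells in Mouse #1 and 4582 in Mouse #2, with median depths of 12966.5 and 12190 unique molecular identifiers (UMIs, each 1 captured transcript). The libraries held 54940400 and 88790688 UMIs, and 7 cell barcodes occurred in both, none of them in a class of myeloid cells that was compared.

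Neutrophils carry ready-made proteins in granules that are laid down in sequence while the cell matures in the marrow. Primary (azurophil) granules come first, at the promyelocyte stage, and hold serine proteases and myeloperoxidase. Secondary (specific) granules follow at the myelocyte stage, tertiary (gelatinase) granules later, and the calcium-binding pair S100a8 and S100a9 fills the cytosol. Since a granule protein is stored after its mRNA has gone, the mRNA marks the stage of synthesis rather than the presence of the protein. Monocytes pass through an early stage with primary granule genes too.

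Of the 4 primary granule genes, Elane encodes neutrophil elastase, Prtn3 proteinase 3, Ctsg cathepsin G and Mpo myeloperoxidase, the enzyme that makes hypochlorous acid. Of the 3 secondary granule genes, Camp encodes the cathelicidin precursor, Ngp a neutrophilic granule protein related to the cystatins and Ltf the iron-binding lactoferrin. Mmp8 encodes neutrophil collagenase. In the GRCm38 annotation (GENCODE vM21) several members were neighbours. Prtn3 (chr10:79874476-79883174, plus strand) ended 3072 bases before Elane (chr10:79886247-79888215, plus strand, 5 exons), with no protein-coding gene between them. S100a8 (chr3:90668978-90670035, plus strand) and S100a9 (chr3:90692632-90695721, minus strand) were 22596 bases apart, also with none between. Camp (chr9:109847379-109849617, minus strand), Ngp (chr9:110419747-110423012, plus strand) and Ltf (chr9:111019271-111042767, plus strand, 17 exons) followed one another within chromosome 9, with 8 coding genes between the first pair and 20 between the second. Mmp8 (chr9:7558456-7568485, plus strand) lay far away on the same chromosome. Mpo (chr11:87793581-87804413, plus strand, 14 exons) and Ctsg (chr14:56099881-56102574, minus strand) stood alone. Prtn3 was overlapped on the opposite strand by Plppr3, and Mpo by Gm11505.

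Because the members fell into groups that moved together, their upstream sequences are shown for 6 of them. RefSeq promoters (GRCm38.p6) matched all 10 members, and the 250 bases before each start were searched on both strands for TTNNGNAA, letters that C/EBP factors bind, for GAGGAA, the core bound by the myeloid factor PU.1, and for TATAAA, the TATA box. The first was found in 5 of 10 members (Ngp, Ltf, Mmp8, S100a8 and S100a9) against 36.8% of all 32851 promoters, the second in 7 of 10 (all but Camp, Ngp and S100a9) against 23.3%, and the third in S100a8 and Ctsg against 12.4%. All 4 primary granule genes had GAGGAA and none had TTNNGNAA in this window, whereas Camp had none of the 3. A match is only a run of letters, not a bound site. Printed below is the part of each window that lies before both the RefSeq start and the first exon of the GENCODE transcript, in the direction of the gene, with matches on either strand in capitals. The counts above cover the whole window. Of it, 203 bases in Mpo, 161 in Camp, 93 in S100a8, 65 in Elane, 61 in Ngp and 53 in Prtn3 lie past the GENCODE start. The TATAAA and 1 GAGGAA of S100a8 and 1 TTNNGNAA of Ngp are therefore not in the printed parts. Elane is at chr10:79886062-79886246 (plus), Prtn3 at chr10:79879417-79879613 (plus), Ngp at chr9:110419558-110419746 (plus), Mmp8 at chr9:7558179-7558428 (plus), S100a8 at chr3:90668821-90668977 (plus) and S100a9 at chr3:90695722-90695971 (minus).
Elane: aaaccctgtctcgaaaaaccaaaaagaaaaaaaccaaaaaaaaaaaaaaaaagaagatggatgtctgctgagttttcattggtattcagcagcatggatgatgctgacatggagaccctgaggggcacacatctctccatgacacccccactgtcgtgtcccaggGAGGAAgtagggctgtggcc
Prtn3: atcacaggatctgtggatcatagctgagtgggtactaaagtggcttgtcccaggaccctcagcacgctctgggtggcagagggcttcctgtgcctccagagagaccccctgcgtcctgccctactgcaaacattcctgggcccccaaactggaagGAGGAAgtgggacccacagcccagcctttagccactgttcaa
Ngp: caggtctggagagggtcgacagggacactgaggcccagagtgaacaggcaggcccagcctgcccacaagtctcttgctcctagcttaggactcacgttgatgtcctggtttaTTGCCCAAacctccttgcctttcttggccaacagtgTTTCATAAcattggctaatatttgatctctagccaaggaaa
Mmp8: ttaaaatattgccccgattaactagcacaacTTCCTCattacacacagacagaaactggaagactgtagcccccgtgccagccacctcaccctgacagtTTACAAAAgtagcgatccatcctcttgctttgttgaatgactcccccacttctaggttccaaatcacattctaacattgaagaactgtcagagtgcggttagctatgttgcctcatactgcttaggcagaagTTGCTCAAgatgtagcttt
S100a8: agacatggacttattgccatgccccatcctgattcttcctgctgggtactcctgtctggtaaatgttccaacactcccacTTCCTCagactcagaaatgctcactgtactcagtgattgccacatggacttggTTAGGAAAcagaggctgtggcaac
S100a9: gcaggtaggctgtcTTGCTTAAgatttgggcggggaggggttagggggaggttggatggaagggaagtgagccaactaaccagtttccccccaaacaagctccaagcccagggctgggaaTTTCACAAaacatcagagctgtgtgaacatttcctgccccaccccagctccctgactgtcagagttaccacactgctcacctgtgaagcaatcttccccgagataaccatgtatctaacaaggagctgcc
The Elane and Prtn3 sequences carried 1 GAGGAA each in the sense direction, and the other 4 carried matches on one or both strands.

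Cells were clustered without the 10 members and without 27 other granule genes, and clusters were called "X-like" from marker genes. The naming did use granule genes, members among them. A cluster nearest a non-myeloid class stayed unnamed when they outnumbered that class's markers among its 10 leading genes. Cluster M3, nearest the reticular class and rich in members, stayed unnamed in this way and is not among the reticular-like cells. The classes used here were granulocyte progenitor-like cells (41 cells in Mouse #1 and 25 in Mouse #2, cluster M5), neutrophil-like cells (190 and 188, clusters M6, M0, M4 and M1), monocyte-like cells (78 and 29, cluster M2) and macrophage-like cells (20 and 22). The labels were set against their markers. Cluster M5 raised 5 of 6 progenitor markers, among them Ms4a3, Kit and Myb, and its summed progenitor markers stood at 3484 and 3010 counts per 1000000 UMIs (CPM) against 18.6 to 466 in the neutrophil-like clusters. Clusters M4 and M1 raised all 10 neutrophil markers and M0 raised 8. Cluster M6 raised 3 of 10 (Ly6g, Ifitm6 and Wfdc21), and its leading genes were Chil3 and Fcnb beside members and Cebpe, so that its name rests on the fewest markers. The macrophage markers C1qa, C1qb and C1qc were not raised in M5, M6, M0 or M4, where the 6 macrophage markers summed to between 0 and 11.9 CPM against 11097 and 14417 CPM in the macrophage-like cells. In M1 they summed to 23.2 CPM in Mouse #1 and 11.1 CPM in Mouse #2, with 1 of the 6 above 10 CPM.

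Granule transcripts filled a large part of the neutrophil-like cells. The 10 members made up 40.8% of all UMIs in the neutrophil-like cells of Mouse #1 and 42.5% in Mouse #2 (mean 41.6% ± 1.24, SD, n = 2 mice). S100a8 and S100a9 alone accounted for 33.6% and 35.1%. In both mice S100a9 ranked 1 and S100a8 ranked 2 among all 28006 features in these cells, with Camp at rank 3, Ngp at rank 4 and Ltf at rank 11. In the progenitor-like cells the order was S100a8, S100a9 and Elane, with Prtn3 at rank 4 in Mouse #1 and rank 5 in Mouse #2, and the members made up 11.9% and 13.6% of UMIs. The median single neutrophil-like cell gave 38.2% of its UMIs to the members in Mouse #1 and 41.0% in Mouse #2, with a highest value of 58.5%. Values are compared between genes without division by length, since a 3′ library counts each transcript once.

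The cells were few but held most of these transcripts. Neutrophil-like cells were 6.91% of cells in Mouse #1 and 4.10% in Mouse #2, yet they held 73.8% and 71.9% of the member UMIs found in cells. Progenitor-like cells (1.49% and 0.546% of cells) held a further 13.6% and 10.3%, and monocyte-like cells 2.18% and 1.27%. Cells of unnamed clusters (6.91% and 7.59% of cells) held 8.004% and 13.9%, or 115747 and 211611 member UMIs. The reticular-like cells, marked by Adipoq and Lpl, formed the largest class (1184 and 2376 cells), and the members made up a median of 0.0218% and 0.0145% of a cell's UMIs there.

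The primary granule genes peaked in the progenitor-like cells. Elane stood at 16064 CPM in Mouse #1 and 13714 CPM in Mouse #2 in the progenitor-like cells, at 1177 and 1685 CPM in the monocyte-like cells and at 470 and 161 CPM in the neutrophil-like cells. Prtn3 showed the same order, with 12759 and 10314 CPM, then 2212 and 2475 CPM, then 327 and 126 CPM. Mpo fell from 6297 and 5322 CPM in progenitor-like cells to 1597 and 1928 CPM in monocyte-like and 98.9 and 29.5 CPM in neutrophil-like cells. For all 4 genes the 2 mice of each class lay apart from those of the next class, in the order progenitor-like, monocyte-like, neutrophil-like. Ctsg held 4321 and 3406 CPM, 1078 and 1060 CPM, and 50.04 and 17.5 CPM in these classes. Within the neutrophil-like class, Mouse #1 was higher than Mouse #2 for each of the 4 genes, but a few cells set these levels. In Mouse #1, 6 of 190 neutrophil-like cells (5 in cluster M6 and 1 in M1) held 85.9% of the 2478 primary granule UMIs, and in Mouse #2, 1 of 188 cells held 682 of 857, or 79.6%. In the remaining cells the 4 genes together stood at 145 and 70.4 CPM, against 947 and 333 CPM with all cells.

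The secondary granule genes and the S100 pair had their highest class sums in the neutrophil-like cells. Camp stood at 35190 and 34621 CPM there, against 8500 and 11722 CPM in the progenitor-like cells and 492 and 2313 CPM in the monocyte-like cells. Ngp stood at 28764 and 31856 CPM, 5747 and 8231 CPM, and 473 and 1343 CPM. For both genes the mice agreed closely in the neutrophil-like cells and lay far apart in the monocyte-like cells. Ltf was much rarer in progenitor-like cells, at 139 and 281 CPM, than in neutrophil-like cells, at 5552 and 6335 CPM. In the monocyte-like cells Ltf held 98.6 and 234 CPM, which overlaps the progenitor-like values. S100a8 rose from 34780 and 44928 CPM in progenitor-like to 165754 and 174479 CPM in neutrophil-like cells, and S100a9 from 30570 and 37830 CPM to 170202 and 176255 CPM. Of all the members, Mmp8 was the one nearly missing from the progenitor-like cells: 1 UMI was counted in Mouse #1 (0.606 CPM) and 0 in Mouse #2, against 1227 and 1267 CPM in neutrophil-like cells. The ratio of these levels in Mouse #1 was 2024, with an exact 95% counting interval of 363 to 79982, and in Mouse #2 Mmp8 was at least 489-fold higher, taking 3 UMIs in place of 0. The macrophage-like cells held 172 and 55 member UMIs in all, with S100a8 at 151 and 73.8 CPM.

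**Figure D1:**
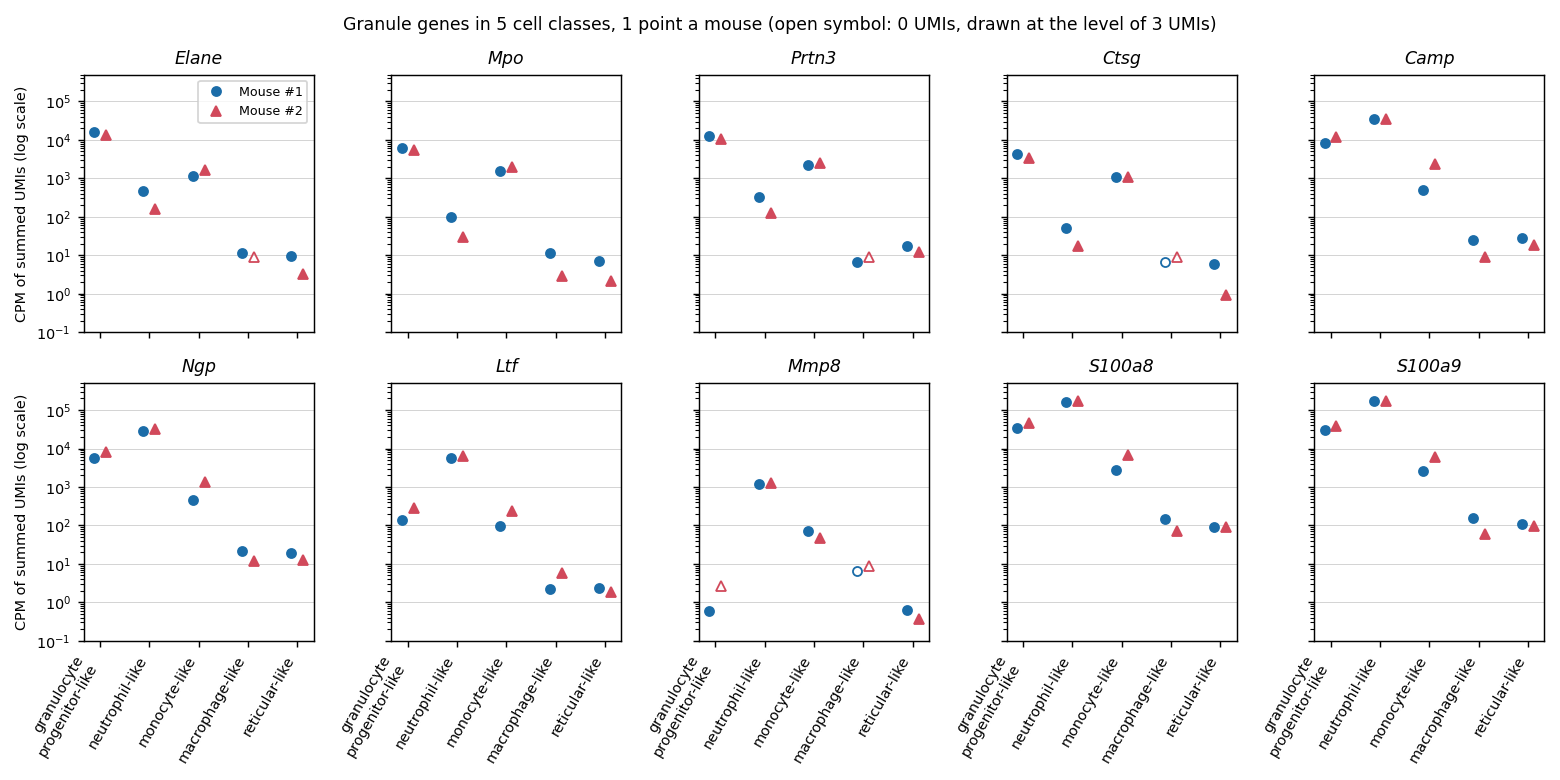
Level of each granule gene in 5 cell classes, as CPM of the summed UMIs on a log scale, with 1 point per mouse and an open symbol at the level of 3 UMIs where the count was 0. Elane, Mpo, Prtn3 and Ctsg are highest in the granulocyte progenitor-like cells, the other 6 genes in the neutrophil-like cells, and all 10 are low in the macrophage-like and reticular-like cells.

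The class sums were then compared by edgeR's quasi-likelihood test with Benjamini-Hochberg adjustment over 9460 genes, with the mouse as the replicate (n = 2 per class). The classes were formed from other genes of the same cells, so many genes differ by construction and counts have to be read against that. Between neutrophil-like and progenitor-like cells 55.4% of all genes tested were called at an adjusted p under 0.05, and all 10 members were called, 6 higher (28.7% of all genes) and 4 lower (26.7% of all genes). The median log2 fold change of the 10 members was 2.59 against 0.03 over all genes, and their median absolute size was 4.99. The largest falls were in Ctsg (log2 fold change −6.20, SE 0.37, edgeR adjusted p = 1.59e-07) and Mpo (−5.87, SE 0.42, edgeR adjusted p = 2.67e-07), followed by Prtn3 at −5.04 and Elane at −4.94, with the neutrophil-like levels set by the 6 and 1 cells above. Ltf rose by 5.49 (SE 0.40, edgeR adjusted p = 3.17e-07), S100a9 by 2.99, Ngp by 2.77, S100a8 by 2.75 and Camp by 2.44 (SE 0.48, edgeR adjusted p = 9.65e-04). These folds use TMM scaling, whose factors were 0.659 and 0.615 in the neutrophil-like sums and 0.985 and 1.014 in the progenitor-like sums. Without it the median of all genes moved to −0.59, the numbers of genes called higher and lower changed from 2715 and 2529 to 1591 and 4045, and each member kept its direction. For example, S100a8 then rose by 2.09 and Camp by 1.79.

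Monocyte-like cells held the primary granule genes at an intermediate level. Against the progenitor-like cells, 23.1% of all genes tested were called and 9 of 10 members were, 8 of them lower (9.78% of all genes) and Mmp8 higher (13.3% of all genes). The members' median log2 fold change was −2.89 against 0.02 over all genes. Elane fell by 3.69 on the log2 scale, Prtn3 by 2.61, Ctsg by 2.16 and Mpo by 2.03 (SE 0.35, edgeR adjusted p = 9.35e-04), and S100a8 fell by 3.40. Ltf was not called (log2 fold change −0.68, SE 0.36, edgeR adjusted p = 0.201), but it was with the mouse as a block (edgeR adjusted p = 0.0271) and without the shared barcodes (log2 fold change −3.20, edgeR adjusted p = 1.05e-05). Mmp8 held 72.5 and 47.8 CPM in the monocyte-like cells, a ratio of 120 in Mouse #1 (exact 95% counting interval 21.2 to 4748) and at least 18.5-fold in Mouse #2, but the direction turned when the 7 shared barcodes were removed and the cells clustered afresh (log2 fold change −1.60, with 67 and 71 cells in the progenitor-like class). Without TMM scaling the median of all genes was 0.33 and 2016 genes were called higher and 530 lower, in place of 1258 and 925.

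Between neutrophil-like and monocyte-like cells 53.1% of all genes were called, and again all 10 members were, the 4 primary granule genes lower (27.3% of all genes) and the other 6 higher (25.9% of all genes). The median log2 fold change was 5.44 against −0.09 over all genes. S100a9 rose by 6.30, Ltf by 6.17, Ngp by 6.03, Camp by 5.61 and Mmp8 by 5.27 (SE 0.24, edgeR adjusted p = 2.83e-08). Ctsg fell by 4.04 and Mpo by 3.84 on the log2 scale. Elane had the smallest difference (−1.25, SE 0.37, edgeR adjusted p = 0.0127), and its call was lost with DESeq2 (−1.16, adjusted p = 0.194), with stricter cell filters (−0.28) and after removal of cells with high doublet scores (−0.19). Without TMM scaling the median of all genes was −1.04 and the genes called higher and lower numbered 1007 and 5444, in place of 2446 and 2580.

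The monocyte-like values were carried by a minority of cells. In Mouse #1, 26 of 78 monocyte-like cells had at least 100 primary granule UMIs and held 98.3% of that class's primary granule UMIs, and in Mouse #2, 8 of 29 cells held 99.3%, while the median cell had 2 and 1. These cells were deeper than the others, with median depths of 53447 and 62654 UMIs against 20359 and 16514. Their summed progenitor markers stood at 684 and 514 CPM against 107 and 79.1 CPM, and their summed monocyte markers at 4396 and 4182 CPM against 6903 and 6649 CPM. Secondary granule UMIs lay elsewhere: 2 cells in Mouse #1 and 1 in Mouse #2 held 97.2% and 99.5% of them, and no monocyte-like cell had 100 of both kinds. The part that doublets play in these few cells was not tested.

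Within the neutrophil lineage the members were ordered by stage. The 5 clusters were placed by a stage score, the mean log level of neutrophil markers minus that of progenitor markers, none of which is a member. Its median was −1.02 and −1.03 in M5, 0.52 and 0.59 in M6, 1.77 and 1.88 in M0, 2.40 and 2.42 in M4 and 2.29 and 2.50 in M1, so that the last pair was not separated by the score. The order of M4 before M1 used below was fixed without it.

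Elane fell from 16064 and 13714 CPM in M5 to 1154 and 498 CPM in M6. In M0 all 4 primary granule genes together held 22 UMIs in Mouse #1 and 7 in Mouse #2, or 24.9 and 6.42 CPM. Camp stood at 54234 and 55354 CPM in M6, at 37801 and 36012 CPM in M0 and at 11840 and 15247 CPM in M4. Ngp held 42283 and 44990 CPM in M6 and 34555 and 36854 CPM in M0. By CPM of library totals both genes were thus highest in M6 in both mice, but neither difference between M6 and M0 was called in the test below, and the small difference of Ngp turned with TMM scaling (log2 fold change 0.06 from M6 to M0, edgeR adjusted p = 0.971). Ltf stood at 5600 and 6364 CPM in M6 and at 9089 and 8958 CPM in M0, and at 3180 and 3626 CPM in M4. Mmp8 appeared later still, at 30.2 and 18.0 CPM in M6, 1844 and 1535 CPM in M0 and 2949 and 2603 CPM in M4. By CPM both mice showed Mmp8 highest in M4, a difference from M0 that was not called (edgeR adjusted p = 0.209). S100a8 and S100a9 lay between 113805 and 202284 CPM in each neutrophil-like cluster, and S100a9 went from 151397 CPM in M6 to 202284 CPM in M4 in Mouse #1. In M1 S100a9 stood at 126946 and 148137 CPM, and S100a8 stood at 113805 and 132847 CPM.

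Neighbouring clusters were also tested with edgeR over 8511 genes, a set of comparisons added after the data had been seen. Between M6 and M5 29% of genes were called and all 10 members were, the 4 primary granule genes lower (14.7% of genes) and the other 6 higher (14.3%). Elane fell by 3.75 on the log2 scale (SE 0.72, edgeR adjusted p = 7.83e-04) and Ltf rose by 5.27 (SE 0.73, edgeR adjusted p = 4.56e-05), while the call for Camp (2.87, edgeR adjusted p = 0.0225) was lost with DESeq2 (2.73, SE 1.21, adjusted p = 0.101). Between M0 and M6 26.8% were called and 5 members were, the 4 primary granule genes lower (11.2%) and Mmp8 higher (15.6%) by 6.46 (SE 0.40, edgeR adjusted p = 3.57e-08). Camp, Ngp, Ltf and the S100 pair were not called in that step, with log2 fold changes from −0.22 to 0.94, though with no filter on low counts edgeR also called Ltf (0.92, adjusted p = 0.00674) and S100a9 (0.68, adjusted p = 0.0373) higher. Between M4 and M0 3.13% were called (2.06% higher and 1.07% lower) and 0 members were by edgeR or DESeq2, with 3 members (Ngp, Ltf and Mmp8) at an unadjusted p under 0.05 by edgeR and 2 by DESeq2. With no filter on low counts edgeR called 5 members in that step, Camp (−1.48, adjusted p = 4.43e-06), Ngp (−1.46) and Ltf (−1.44) lower and Elane (2.33) and Prtn3 (1.86) higher. The rises of Elane and Prtn3 rested on few UMIs. In Mouse #2, 1 M4 cell held 35 of the 40 primary granule UMIs of that cluster. In Mouse #1 Prtn3 was lower in M4 than in M0 (3.94 against 15.2 TMM-scaled CPM) and Elane differed little (15.8 against 13.5). Between M1 and M4 1.72% were called and 3 members were, all lower (1.1% of genes, against 0.611% higher). Ltf fell by 4.93, Ngp by 3.39 and Mmp8 by 1.44 on the log2 scale, the last not called without TMM scaling (edgeR adjusted p = 0.0642). With no filter 8 members were called, with Camp (−1.98), S100a8 (−0.92) and S100a9 (−0.93) lower as well and Elane (2.20) and Prtn3 (2.72) higher.

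Single cells bore on the last steps. A single M1 cell of Mouse #1 held 316 of the 338 primary granule UMIs and 5266 of the 5409 secondary granule UMIs of that cluster in that mouse. With it, Camp in M1 stood at 9247 CPM in Mouse #1 and 233 CPM in Mouse #2. Without it, the 3 secondary granule genes together stood at 394 CPM in Mouse #1 and Camp was called as well, with a fall of 6.73 on the log2 scale (edgeR adjusted p = 9.85e-07), and Ngp fell by 5.62. Ltf then had 3 UMIs in M1 of Mouse #1 and 1 in Mouse #2 (8.26 and 3.70 CPM), against 3180 and 3626 CPM in M4. Between M4 and M0 the same removal brought Ngp (−1.36, edgeR adjusted p = 0.0372) and Ltf (−1.34, edgeR adjusted p = 0.0192) past the threshold. In M4, 1 cell held 4639 of 9927 secondary granule UMIs in Mouse #1 and 1 cell held 4123 of 14726 in Mouse #2. The median M4 cell held 35.5 and 110.5. Without these M4 cells the 3 genes together stood at 15804 and 27428 CPM, against a mean of 30236 CPM over the mice with them. The steps were not tested without these M4 cells.

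**Figure D2:**
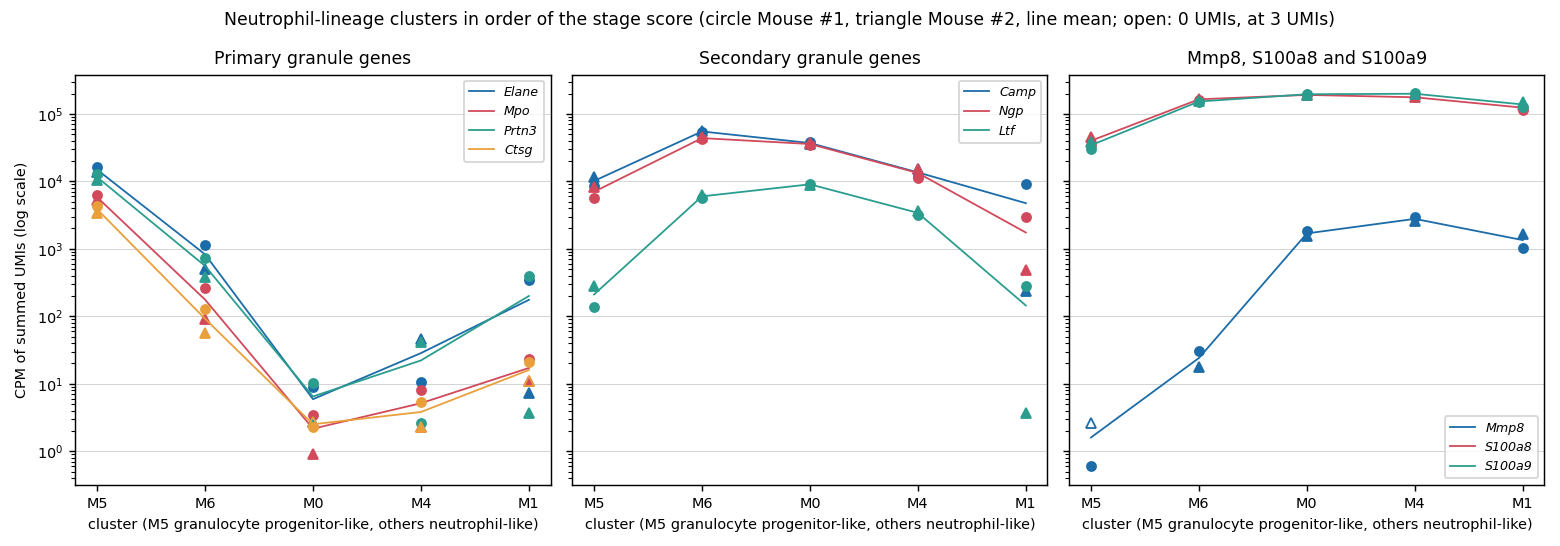
CPM of summed UMIs (log scale) in the 5 neutrophil-lineage clusters, placed left to right as M5, M6, M0, M4 and M1, with a circle for Mouse #1, a triangle for Mouse #2, a line through the means and an open symbol at 3 UMIs where the count was 0. The stage score did not separate M4 from M1, whose order was fixed without it. By CPM, primary granule genes are highest in M5, Camp and Ngp in M6, Ltf in M0 and Mmp8 in M4, although the differences of Camp, Ngp and Ltf between M6 and M0 and of Mmp8 between M0 and M4 were not called, and the raised circles of Mouse #1 in M1 come mostly from 1 cell.

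The make-up of the granule transcripts changed along the same order. Primary granule genes made up 33.1% and 24.1% of member UMIs in the progenitor-like M5 cells, 0.544% and 0.241% in M6 and 0.00528% and 0.00138% in M0. Secondary granule genes made up 12.1% and 14.9% in M5, 24.5% and 24.96% in M6, 17.2% and 17.6% in M0 and 6.49% and 8.36% in M4. In M1 of Mouse #2, S100a8 and S100a9 made up 99.2% of member UMIs. The share of all UMIs taken by the 10 members was 41.7% and 42.7% in M6, 47.2% and 46.6% in M0, 40.7% and 40.8% in M4 and 25.5% and 28.3% in M1.

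**Figure D3:**
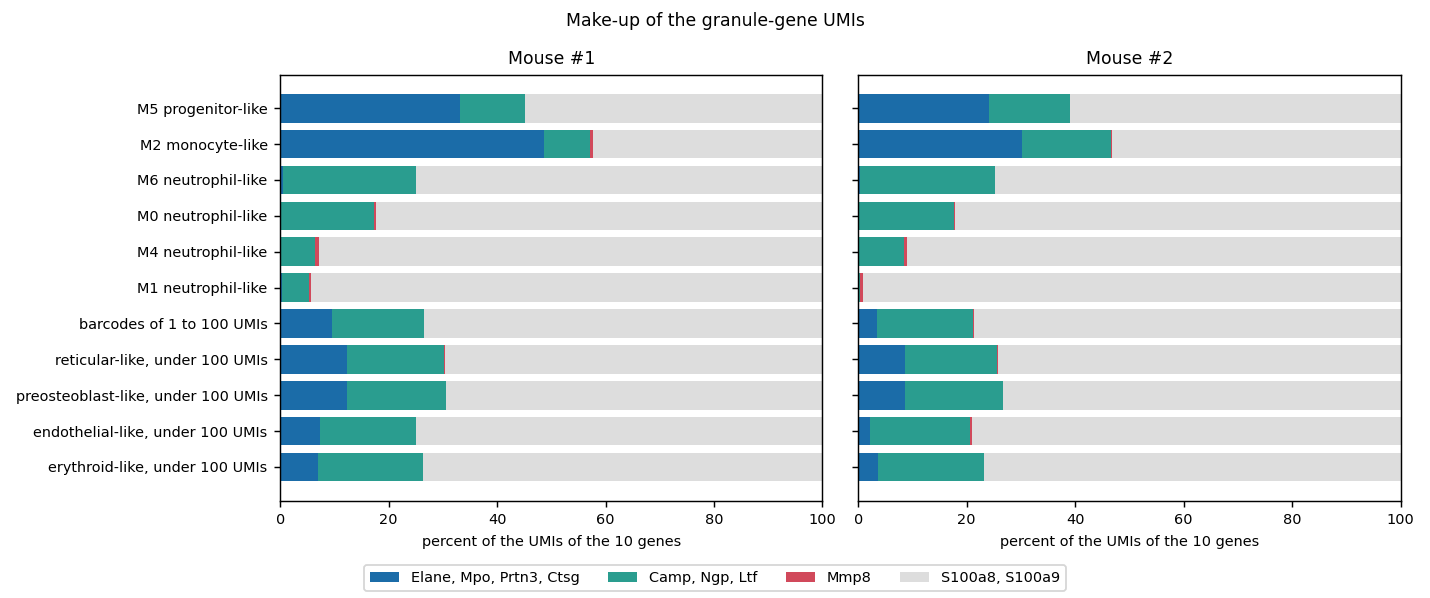
Make-up of the member UMIs in 6 myeloid clusters, in barcodes of 1 to 100 UMIs and in 4 non-myeloid classes (cells with under 100 member UMIs), as percent of the UMIs of the 10 genes in each mouse, divided into primary, secondary, Mmp8 and S100 genes. Primary granule genes take 33.1% and 24.1% in the progenitor-like cells and 48.6% and 30.2% in the monocyte-like cells, and the S100 pair takes 74.8% to 99.2% in the 4 neutrophil-like clusters.

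At a threshold of 100 UMIs, cells with both kinds of granule transcript were found mainly among the progenitor-like cells. These were also the deepest cells of the lineage, and a fixed threshold is easier to reach in deep cells. Median depth was 40862 and 45410 UMIs in M5, 14045 and 12911 in M0 and 4928.5 and 4833 in M1. Among the progenitor-like cells, 40 of 41 in Mouse #1 and 22 of 25 in Mouse #2 had at least 100 primary granule UMIs. At least 100 secondary granule UMIs were found in 19 and 12 of them. Both kinds reached 100 UMIs in 18 and 9 cells. The 19 and 12 cells with secondary transcripts held 98.9% and 99.5% of the secondary granule UMIs of the cluster, so that the class level of Camp and Ngp came from a part of the cells. They also had lower summed progenitor markers (2713 and 2414 CPM against 4030 and 3437 CPM) and higher summed neutrophil markers (1736 and 2017 CPM against 484 and 534 CPM) than the other M5 cells. In M6, 5 of 31 cells in Mouse #1 and 1 of 21 in Mouse #2 still had 100 primary granule UMIs, and they held 86.0% and 84.8% of them. In M0 no cell reached 100 primary granule UMIs, while 52 of 55 and 66 of 74 cells reached 100 secondary ones.

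**Figure D4:**
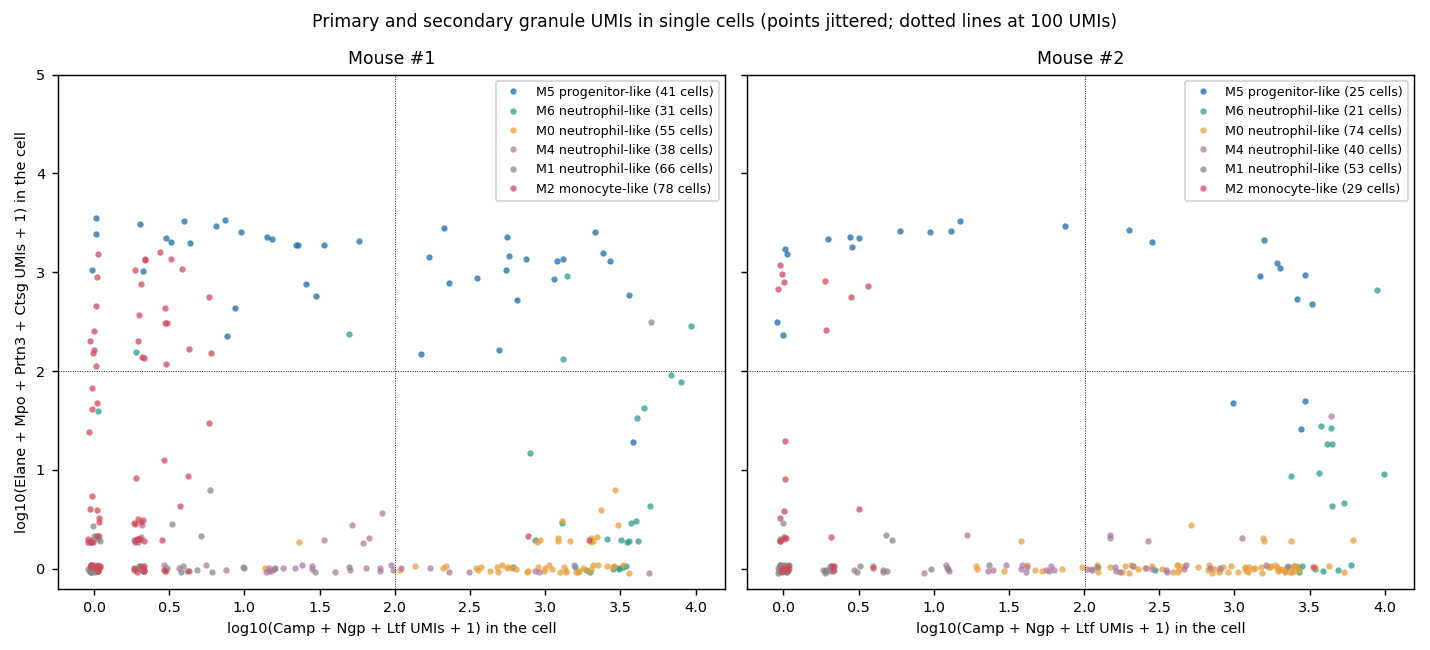
Primary against secondary granule UMIs in each cell of the neutrophil lineage and of the monocyte-like cluster, both as log10(UMIs + 1), with 1 slightly jittered point per cell, 1 panel per mouse and dotted lines at 100 UMIs. Progenitor-like cells lie high on the primary axis with a part of them also high on the secondary axis, and most neutrophil-like cells lie along the secondary axis.

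When each neutrophil-lineage cell was thinned to 2000 UMIs, 19.0% of 231 cells in Mouse #1 and 10.8% of 213 cells in Mouse #2 had a UMI of both kinds (Wilson 95% interval 14.5% to 24.6% in Mouse #1). Secondary transcripts alone were seen in 50.2% and 64.3%, primary alone in 9.52% and 6.10% and neither in 21.2% and 18.8%. Before thinning, both kinds were seen in 29.4% of cells as the mean of the mice. These shares are set beside the reticular-like cells, which do not include cluster M3. Whether all granule counts in those cells are stray was not tested, and their Prtn3 counts are treated below. After the same thinning 0.592% of 1182 and 0.379% of 2373 reticular-like cells had both kinds, 6.77% and 3.71% had a primary and 9.31% and 7.37% a secondary transcript. Elane was seen in 97.6% and 92.0% of thinned progenitor-like cells, in 4.74% and 2.66% of neutrophil-like and in 1.35% and 0.674% of reticular-like cells. S100a8 was seen in 99.5% and 100% of thinned neutrophil-like cells and in 18.3% and 11.5% of reticular-like cells. Intervals cover counting error only.

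Granule transcripts were also abundant in barcodes not taken as cells. Barcodes of 1 to 100 UMIs, which are called free RNA here, numbered 964444 in Mouse #1 and 1247950 in Mouse #2. Whether they hold free RNA alone was not tested. The 10 members together stood at 23343 and 13947 CPM there. S100a9 stood at 8649 and 5408 CPM, S100a8 at 8491 and 5568 CPM and Camp at 2159 and 1390 CPM. Elane stood at 720 and 176 CPM, Prtn3 at 677 and 149 CPM, Mpo at 421 and 99.3 CPM and Ctsg at 391 and 56.6 CPM. The primary granule genes thus differed more between the mice than the S100 pair did. They made up 9.46% (Wilson 95% interval 9.30% to 9.63%) of the free member UMIs in Mouse #1 and 3.45% (3.31% to 3.59%) in Mouse #2, against 5.92% and 3.35% over all cells of each mouse. Mmp8 had the lowest free level of the 10, at 33.6 and 18.8 CPM.

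Other cells held the members at about 1% of the free level, and the value depended on which barcodes stood for free RNA. In Mouse #2 the free members held 6562 CPM in barcodes of 11 to 100 UMIs and 7450 CPM in those above 100 and up to 300, so that the 6 non-myeloid classes stood at 1.46% to 2.65% and 1.28% to 2.33% of the free level, against 0.686% to 1.25% with 1 to 100. In Mouse #1 these ranges were 0.910% to 1.89% and 0.730% to 1.52%, against 0.717% to 1.49%. After leaving out cells with 100 or more member UMIs, the summed members stood at 276 and 170 CPM in reticular-like cells, which is 1.18% and 1.22% of the free level, at 1.34% and 1.22% in endothelial-like cells and at 0.717% and 0.686% in erythroid-like cells. The few cells left out held most of the member UMIs in some classes, with 2 and 1 endothelial-like cells holding 96.0% and 96.6% and 1 B lymphoid-like cell of Mouse #1 holding 94.5%. Prtn3 made up 48.5% and 45.9% of the Prtn3 and Elane UMIs in the free RNA and 44.3% and 42.9% in the progenitor-like cells, but 69.3% (Wilson 95% interval 64.4% to 73.7%) and 82.8% (78.6% to 86.3%) in the reticular-like cells. Over the 4 windows of free barcodes the Prtn3 share lay between 43.8% and 49.2%. The 4 primary granule genes made up 12.3% and 8.64% of member UMIs in these reticular-like cells, 7.36% and 2.15% in the endothelial-like and 7.002% and 3.63% in the erythroid-like cells. Their share of free member UMIs ran from 6.65% to 13.5% in Mouse #1 and from 2.31% to 6.27% in Mouse #2 with the window, so that in Mouse #1 the reticular-like value lay within it. In the preosteoblast-like cells, marked by Ibsp and Mmp13, Prtn3 made up 64.3% and 66.9% of the pair. Prtn3 stood at 16.3 and 10.2 CPM in the reticular-like cells and at 2.10 and 1.39 CPM in the erythroid-like cells. Plppr3, the phospholipid phosphatase-related gene on the opposite strand of Prtn3, stood at 37.7 and 33.9 CPM in the reticular-like, 27.2 and 23.3 CPM in the preosteoblast-like and 1.80 and 3.15 CPM in the erythroid-like cells. Its part in the Prtn3 counts was not tested, since the strand setting of the counting was not given in the sources used here. In the monocyte-like cells, where Prtn3 stood at 2212 and 2475 CPM, the Prtn3 share was 65.3% and 59.5%.

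**Figure D5:**
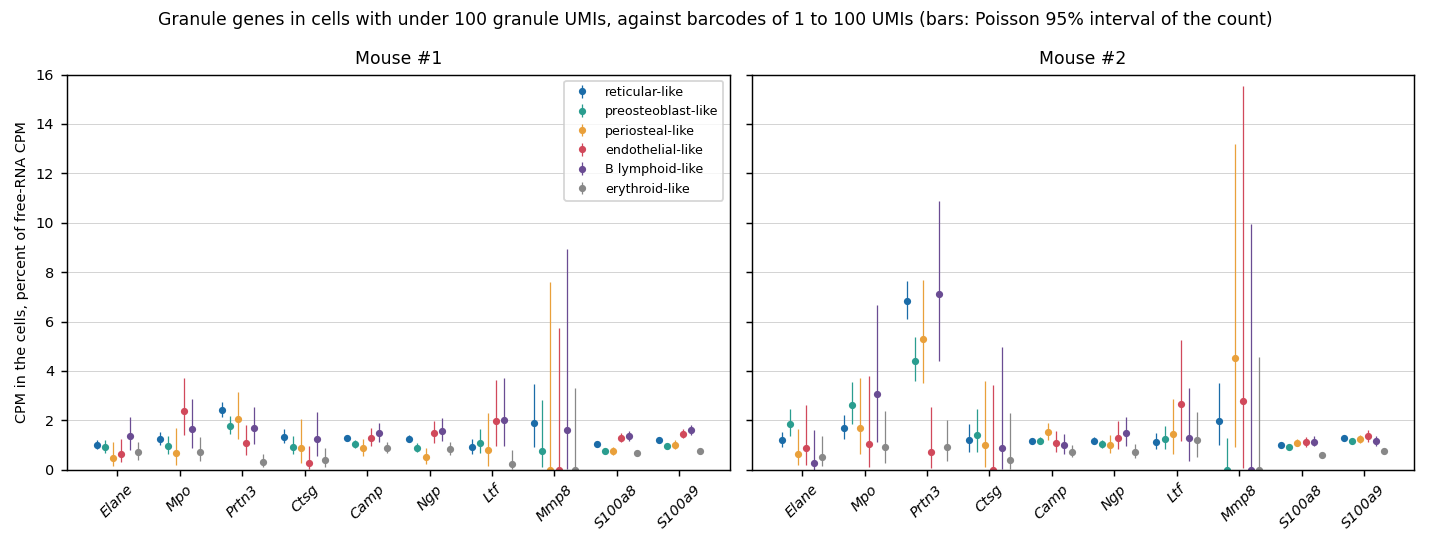
Level of each member in 6 non-myeloid classes as percent of its level in the free RNA of the same mouse, over cells with under 100 member UMIs, with Poisson 95% intervals of the count. Of 120 points 92 lie between 0.5% and 2%, and in Mouse #2 Prtn3 lies at 4.41% to 7.13% in the reticular-like, preosteoblast-like, periosteal-like and B lymphoid-like cells, against 1.67% to 2.41% in these classes of Mouse #1. The 7.13% of the B lymphoid-like cells is 21 UMIs in 7 of 234 cells, while the reticular-like cells of Mouse #2 had 303 UMIs in 271 of 2373 cells.

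The 27 other granule genes behaved by group in the same comparison of neutrophil-like with progenitor-like cells, with 15 called higher, 7 lower, 3 not called and 2 (Bpi and Cebpd) not tested, against 28.7% and 26.7% of all genes. Without TMM scaling these counts were 14 higher, 9 lower and 2 not called. All 9 further secondary granule genes were higher, among them Lcn2, the siderophore-binding lipocalin, which stood at 331 and 722 TMM-scaled CPM in progenitor-like and 16717 and 21220 in neutrophil-like cells (log2 fold change 5.17, SE 0.46, edgeR adjusted p = 1.31e-06). The rise of Olfm4 rested on Mouse #2. Without TMM scaling it stood at 51.9 CPM in neutrophil-like and 4.34 CPM in progenitor-like cells there, and at 13.4 CPM in both classes of Mouse #1. Of 5 tertiary granule genes 4 were higher. The remaining gene, Fcnb, was not called (log2 fold change −0.39, SE 0.22, edgeR adjusted p = 0.140). Without TMM scaling it was called lower (−1.06, SE 0.21, edgeR adjusted p = 9.01e-04). Mmp9, the gelatinase, had 1 and 0 UMIs in the progenitor-like cells against 1265 and 1066 CPM in the neutrophil-like cells, at least 412-fold in Mouse #2. The membrane protease Mmp25, with 0 UMIs in the progenitor-like cells of both mice, was at least 12.6-fold and 8.56-fold higher. The metal transporter Slc11a1 was at least 22.3-fold higher in Mouse #1, and the sheddase Adam8 rose by 6.50 on the log2 scale (SE 0.41). Of 4 further primary granule genes 3 were lower, led by the serine protease Prss57 (−3.49, SE 0.27, edgeR adjusted p = 9.10e-07), and Bpi was not tested. Cst7, an inhibitor of the proteases that activate granule enzymes, fell by 5.27 on the log2 scale, and Srgn, the proteoglycan that packs granule contents, by 1.18. Of the regulators, Gfi1, a repressor needed for neutrophil formation, fell by 2.23 and Cebpa, which starts the lineage, by 1.43 on the log2 scale (SE 0.37, edgeR adjusted p = 0.00572). Cebpe, the regulator of secondary granule genes, was called higher with TMM scaling (0.67, SE 0.17, edgeR adjusted p = 0.00572) but showed no difference without it (0.02, SE 0.18, edgeR adjusted p = 0.919), at 432 and 429 CPM in neutrophil-like and 425 and 422 CPM in progenitor-like cells. Spi1, which encodes PU.1, rose by 1.40, or by 0.75 without TMM scaling. Cebpd was not tested.

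Over 20 sums of 10 classes in 2 mice, the genes whose log2(CPM + 1) was most like that of the summed primary granule genes were Ms4a3 (Pearson r = 0.963), Nkg7 (0.954), Prss16 (0.9498), Cst7 (0.946) and Chdh (0.942). Those most like the summed secondary granule genes were Chil3 (0.978), Lcn2 (0.973), Pglyrp1 (0.973), Chil1 (0.965) and Cd177 (0.958). Prss16 and Chdh were rare, with means of 7.69 and 16.9 CPM in progenitor-like and 3.84 and 3.08 CPM in neutrophil-like cells. Ms4a3 and Nkg7 were markers used to name the progenitor-like cells, and sums of 1 mouse share a library, so these values are a description.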

How the data were processed

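Femoral cells of 2 libraries were profiled with 10x Genomics Single Cell 3′ v3 chemistry. The deposited files hold raw UMI counts per gene and barcode, which the authors made with Cell Ranger against mm10 with reporter sequences added, and the tools per the submitters' notes also include Seurat. The strand setting and annotation release were not given in the sources used here. Barcodes of 1000 genes or more with no more than 15% mitochondrial UMIs were kept as cells, and 0 deposited per-sample columns were unused. Counts were scaled, log depth was regressed out, and 2000 variable genes without granule genes gave 30 components. Leiden clustering (leidenalg 0.10.2, resolution 0.5) was repeated on myeloid cells with 1000 genes and 15 components. A marker counted as raised in a cluster when its mean was 1.5 times that of the rest and 10% of cells had it, a scoring rule set after seeing the data. Scrublet (scanpy 1.11.5) called 1 and 3 doublets and therefore had not worked. For that reason 60 and 168 cells with high scores were removed only as an alternative.

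UMIs were summed per class and mouse for classes of at least 10 cells, and tested with edgeR 4.0.16 (R 4.3.3, quasi-likelihood, TMM, filterByExpr, Benjamini-Hochberg) over 4 myeloid classes. DESeq2 1.42.0 was an alternative. The edgeR step was tested on simulated data. With 2 mice a permutation test cannot go below p = 0.333. Classes with the same number came from the same mouse and library, and same-number deviations correlated at 0.108, 0.117 and 0.103. The main design had no mouse block. The members, the other granule genes and the tests were chosen with earlier results of these data known. All 10 members are named, as are the 5 largest rises and falls and the regulators among the 27 other granule genes, and the 5 genes most like each granule group. Promoters came from RefSeq and positions from GENCODE vM21.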

Additional observations from a re-analysis of the deposited data

Results flagged for a closer look

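An unnamed cluster, M3, which entered no comparison, held the members at 140411 CPM in Mouse #1 (31 cells) and 146466 CPM in Mouse #2 (48 cells), well above the 23343 and 13947 CPM of the free RNA. Its leading genes included Orm1, Fcnb and Camp, and it raised 5 of 7 reticular markers. It stayed unnamed because granule genes, and no reticular marker, were among its leading genes. The summed reticular markers stood at 6698 and 4371 CPM, Cxcl12 at 4116 and 3444 CPM and the GFP transgene at 5444 and 6433 CPM, against 28.5 and 29.3 CPM of GFP in the progenitor-like cells. Of its cells, 20 of 31 and 39 of 48 (64.5% and 81.2%) had at least 10 UMIs of Cxcl12 and at least 10 of the members, against 0 progenitor-like cells. By doublet score, 20 and 29 of its cells were among those removed in the alternative, and its median depth was 22413 and 18359 UMIs. The part of doublets in this cluster was not tested.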

How the results depend on the processing

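Of 280 alternatives of the members' fold changes in the 3 class comparisons that gave a test, 273 kept direction and side of the threshold. Calls were lost in 3 (Elane between neutrophil-like and monocyte-like cells), gained in 3 (Ltf between monocyte-like and progenitor-like cells, adjusted p = 0.0271 with the mouse as a block and 0.00141 with no filter) and turned in 1 (Mmp8, −1.60 without shared barcodes). The block changed no other call, with 5349, 2334 and 5126 genes called against 5244, 2183 and 5026. DESeq2 called 1283 and 3318 genes in the 2 monocyte-like comparisons. In 1 mouse alone, no member fold of 60 turned. With no filter on low counts, M4 against M0 called 439 genes and 5 members and M1 against M4 called 293 and 8, without TMM the latter called 263, and without the 1 cell of M1 these steps called 405 genes (2 members) and 259. The summed members in neutrophil-like cells stood at 416391 CPM (407636 to 425146 without either mouse), 369187 with stricter cell filters (2000 genes, 10%), which left no progenitor-like cluster, and 395622 without high doublet scores. The first of 4 stage bins held all M5 cells and also 13 of 31 M6 cells in Mouse #1 and 19 of 21 in Mouse #2. Camp and Ngp had their highest CPM in M6, so this bin does not stand for the progenitor-like cells alone. From the first to the last bin, the summed primary genes changed by −9.77 on the log2 scale (−10.01 to −9.54) and the summed secondary genes by −2.33 (−2.66 to −2.01). With the first principal component as the axis these were −9.33 and 2.59, with Camp at 2.23, Ngp at 2.75 and Ltf at 5.12, and without shared barcodes the latter was −1.86. The change of the summed secondary genes thus turned in sign with the principal component axis. Cells with both kinds were 14.9% (10.8% to 19.0%), or 29.4% without thinning. Free RNA stood at 18645 CPM (13947 to 23343), or 25471 for barcodes of 1 to 50 UMIs, 12480 for 11 to 100 and 15193 above 100 and up to 300. The causes were not tested. With 2 mice and 25 to 41 progenitor-like cells, counting error and single cells limit the rare values, and genes at a few UMIs can be given only as bounds.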
